A study of Mus musculus with 14 samples.

Results

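The genes described here are those of intestinal IgA and of its carrier across the epithelium. They were chosen by name and are the immunoglobulin constant genes *Igha*, *Ighm*, *Igkc* and *Iglc2*, the plasma cell genes *Jchain*, *Mzb1* and *Tnfrsf17*, and the receptor gene *Pigr*. These 8 genes are all present among the 55889 genes of the table without DSS and the 54721 genes of the table after DSS. RNA sequencing of colon, as the study names the tissue, was available for 14 C57BL/6N mice. One experiment, without DSS, held 4 animals of each genotype, WT and *MiR-29ab1*-/-. The other held 3 of each, given 3.5% DSS (dextran sulfate sodium, which injures the colon epithelium) for 3 days. The study states that a WT sample and a *MiR-29ab1*-/- sample were left out of its analysis, and gives neither the experiment nor the reason. The knockout is a germline deletion of the *miR-29a* and *miR-29b-1* cluster, so that epithelium, B cells and every other cell type lack it, and per the study's methods the mice were littermates of 8 to 12 weeks, unless noted otherwise.

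The labels name crypts of the small intestine, while the study describes colon. The colon genes *Car1*, a carbonic anhydrase, and *Hoxb13*, a transcription factor of the distal gut, stood at 930 to 4143 and 98.8 to 226 CPM without DSS. The enterocyte gene *Apoa4* of the small intestine did not exceed 0.11 CPM in any mouse. It is 1 of 7 small intestine markers, and others of that list were expressed. The 7 summed to 154 to 280 CPM without DSS and 217 to 420 CPM after DSS. The 6 colon epithelium markers summed to 1770 to 4932 and 4758 to 6405 CPM. The tissue is therefore called colon here. This concerns the organ only, and whether crypts or whole colon tissue were sampled was not tested. The 5 smooth muscle markers summed to 2.15 to 2.61 CPM without DSS and 0.921 to 3.4996 CPM after DSS. The 9 epithelial markers summed to 11428 to 14838 and 19571 to 24073 CPM. How much tissue below the epithelium each sample held, and its part in the immunoglobulin values, was not tested. CPM is the read count of a gene scaled to library size with edgeR's TMM factors. Mice of the DSS groups carry the numbers of the table columns.

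IgA is the main antibody of the gut. Plasma cells in the tissue below the epithelium make it from a heavy chain (*Igha*) and a light chain (*Igkc* or an *Iglc* gene), and join single molecules into dimers with the J chain (*Jchain*). Epithelial cells bind these polymers with the polymeric immunoglobulin receptor (*Pigr*) at their basal side, carry them through the cell and release them into the lumen. *Ighm* encodes the heavy chain of IgM, the class borne by B cells before class switching and secreted by a smaller share of gut plasma cells. *Mzb1* encodes a chaperone of antibody assembly, and *Tnfrsf17* encodes BCMA, a survival receptor of plasma cells.

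On GRCm38 the heavy chain genes lie on the minus strand of chromosome 12, *Igha* at chr12:113254830-113260236 and *Ighm* at chr12:113418558-113422730, with *Ighm* upstream. *Igkc* lies at chr6:70726435-70726966 (plus strand), *Iglc2* at chr16:19198396-19200351 (minus), *Jchain* at chr5:88519809-88527891 (minus), *Tnfrsf17* at chr16:11313812-11320074 (plus) and *Pigr* at chr1:130826684-130852249 (plus). These are the spans of whole gene models, exons and introns together.

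The mature forms made from the deleted cluster are shown to give the seed that target transcripts would pair with. The deleted copies lie on chromosome 6 at chr6:31062673-31062694 (miR-29a-3p) and chr6:31063025-31063047 (miR-29b-3p) on the minus strand of GRCm38.p6. The same mature miR-29b-3p is also made from *Mir29b-2* at chr1:195037091-195037113. The related miR-29c-3p, at chr1:195037600-195037621, has the same seed. Both lie outside the deleted cluster. Sequences are from RefSeq, 5′ to 3′, with the seed (bases 2 to 8) in capitals.
mmu-miR-29a-3p: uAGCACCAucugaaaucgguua
mmu-miR-29b-3p: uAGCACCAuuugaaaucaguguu
The complement of this seed, TGGTGCT, was searched for in the 3′ UTRs of GENCODE vM21 on the transcript strand. It was found in 0 of the 8 genes, and in 13.8% of 21033 genes with a 3′ UTR.

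The promoters of *Pigr* and *Jchain* follow, since *Pigr* is the most abundant of the 8 transcripts and *Jchain* is the gene outside the immunoglobulin loci whose level over mice was most like that of *Igha*. Each window is the RefSeq sequence from 250 bases before to 50 bases after the gene start on GRCm38.p6, *Pigr* at chr1:130826434-130826733 (plus strand) and *Jchain* at chr5:88527848-88528147 (minus strand). Windows of *Pigr*, *Jchain* and *Tnfrsf17* were used, the immunoglobulin constant genes had no entry, and *Mzb1* is not reported here. Both strands were searched for 4 motifs, CACGTG (E-box), GAAA followed after any 2 bases by a second GAAA (interferon-stimulated response element), ATGCAAAT (octamer) and GAGGAA (PU.1 core), and the only match in these 2 windows, an E-box starting 71 bases before the *Pigr* start, is in capitals.
Pigr: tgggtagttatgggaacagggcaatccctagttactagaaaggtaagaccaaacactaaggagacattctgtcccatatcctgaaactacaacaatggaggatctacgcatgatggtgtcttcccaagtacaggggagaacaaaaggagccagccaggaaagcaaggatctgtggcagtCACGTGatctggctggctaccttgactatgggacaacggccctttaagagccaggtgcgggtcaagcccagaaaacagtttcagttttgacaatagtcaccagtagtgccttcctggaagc
Jchain: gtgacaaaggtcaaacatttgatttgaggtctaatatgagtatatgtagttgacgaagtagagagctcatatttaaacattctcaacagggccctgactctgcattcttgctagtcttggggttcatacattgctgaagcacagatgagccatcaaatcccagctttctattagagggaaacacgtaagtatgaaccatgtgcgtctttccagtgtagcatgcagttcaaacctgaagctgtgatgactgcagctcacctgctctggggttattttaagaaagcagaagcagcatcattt
Of 32851 RefSeq promoter windows of this length, 7.15% held the E-box letters, 3.44% the interferon element, 1.74% the octamer and 28.3% the PU.1 core. The *Tnfrsf17* window, not printed here, held an interferon element starting 101 bases before the gene start and a PU.1 core starting 120 bases before it.

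The depth was 14231157 to 18185020 counts per mouse without DSS and 20076719 to 23153149 after DSS. The entries *Mir29a* and *Mir29b-1* had at most 1 read in any mouse, WT included, and do not check the labels. *Lncpint*, a non-coding gene beside the cluster, had 6 to 23 reads in the 7 WT mice and 706 to 2889 in the 7 *MiR-29ab1*-/- mice, so that all 14 libraries fell with their genotype label. Immunoglobulin genes together, variable genes included, took 0.00194% to 0.0269% of all counts, whereas *Pigr* alone had 81761 to 147995 reads per mouse.

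**Figure D1:**
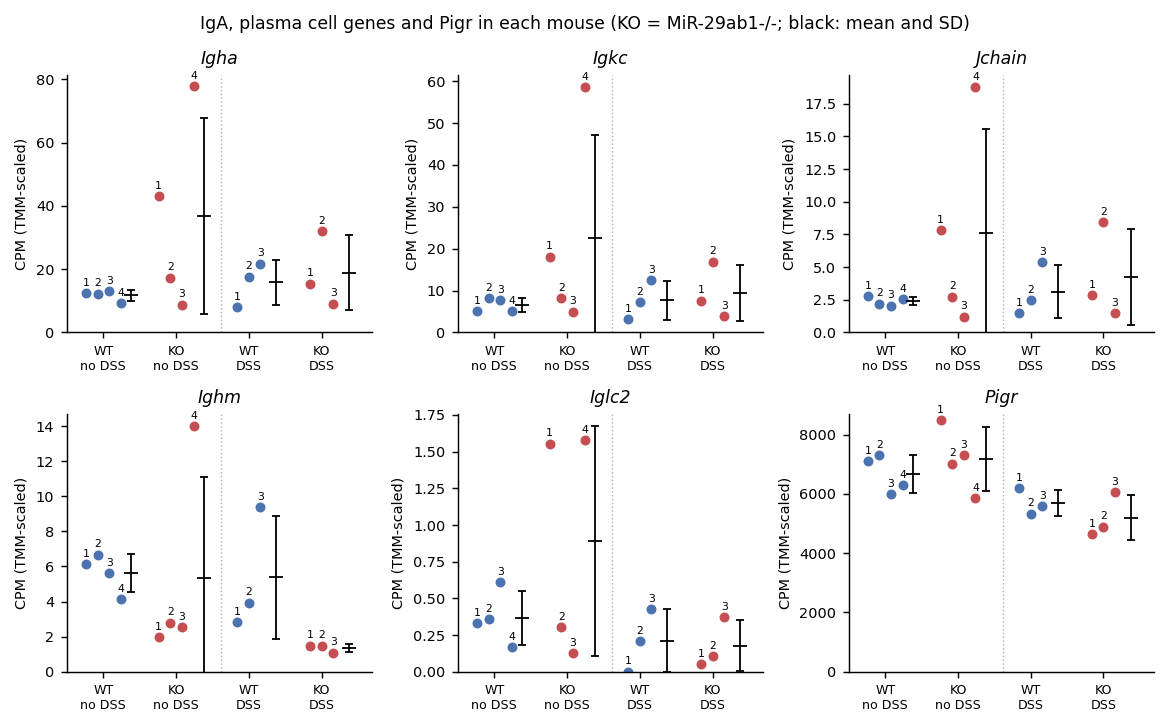
Level of *Igha*, *Igkc*, *Jchain*, *Ighm*, *Iglc2* and *Pigr* in each mouse, in CPM after TMM scaling on linear axes from 0; numbers are mouse numbers, and black marks give the mean and SD of a group (bars that would pass below 0 are cut at the axis). *MiR-29ab1*-/- mice 1 and 4 are the highest of the 8 mice without DSS in *Igha*, *Igkc* and *Jchain*, and the 3 *MiR-29ab1*-/- mice after DSS lie below all WT mice in *Ighm*.

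Compared between genes as CPM per kilobase of gene model, the order in WT mice without DSS was *Pigr* at 1658 ± 156, *Igkc* at 12.2 ± 3.07, *Igha* at 4.39 ± 0.659, *Ighm* at 2.99 ± 0.581, *Jchain* at 0.951 ± 0.127 and *Iglc2* at 0.599 ± 0.299 (SD, n = 4). In *MiR-29ab1*-/- mice the values were 1782 ± 269, 42.2 ± 46.5, 13.8 ± 11.7, 2.82 ± 3.07, 3.04 ± 3.16 and 1.46 ± 1.28. In WT, the ranges of *Igha* and *Ighm* overlapped, as did those of *Jchain* and *Iglc2*, and the other neighbours down to *Iglc2* did not. In *MiR-29ab1*-/- mice the ranges of all neighbours below *Pigr* overlapped. *Mzb1* and *Tnfrsf17* were at the end of the order, at or below 0.236 CPM per kilobase in all 8 mice. After DSS the order was *Pigr* (1418 ± 110 in WT and 1291 ± 188 in *MiR-29ab1*-/- mice), *Igkc* (14.3 ± 8.83 and 17.8 ± 12.6) and *Igha* (5.94 ± 2.63 and 7.06 ± 4.44), followed in WT by *Ighm* (2.86 ± 1.86) and then *Jchain* (1.23 ± 0.804), and in *MiR-29ab1*-/- mice by *Jchain* (1.70 ± 1.46) and then *Ighm* (0.718 ± 0.124; SD, n = 3). *Igkc* and *Igha* overlapped there within each genotype, as did *Ighm* and *Jchain*.

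The first comparison asked how the genotypes differed without DSS. The IgA heavy chain, the kappa light chain and the J chain had means 3.14, 3.45 and 3.19 times those of WT in *MiR-29ab1*-/- colon, with the spread between mice as large as the difference. *Igha* had 224, 206, 236 and 164 reads in WT mice 1 to 4, which is 12.3, 12.3, 13.1 and 9.14 CPM. It had 639, 284, 138 and 1087 reads in *MiR-29ab1*-/- mice 1 to 4, which is 43.2, 17.3, 8.76 and 77.9 CPM. *MiR-29ab1*-/- mice 1, 2 and 4 were above every WT mouse, and *MiR-29ab1*-/- mouse 3 was below all of them. The highest WT mouse had 1.43 times the lowest, and the highest *MiR-29ab1*-/- mouse 8.9 times the lowest. In tissue RNA, more cells of a type and more RNA per cell cannot be told apart.

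The fitted log2 fold change of *Igha* was 1.65 (SE 0.63), with an unadjusted p of 0.0338 and a Benjamini-Hochberg adjusted p of 0.9995 by edgeR's quasi-likelihood test, and the two-sided exact permutation test of CPM gave p = 0.143. *Igkc* (CPM 5.12, 8.11, 7.71 and 5.07 in WT mice 1 to 4, and 18.1, 8.22, 4.95 and 58.6 in *MiR-29ab1*-/- mice 1 to 4) had a log2 fold change of 1.78 (SE 0.76, unadjusted edgeR p of 0.0494). *Jchain* (CPM 2.75, 2.21, 2.05 and 2.56 in WT, and 7.84, 2.74, 1.21 and 18.8 in *MiR-29ab1*-/-) had a log2 fold change of 1.67 (SE 0.73, unadjusted edgeR p of 0.0514). All 3 genes ordered the *MiR-29ab1*-/- mice as mouse 4, 1, 2 and 3.

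Of the 8 genes, 5 had enough reads for the test without DSS, and *Igha* and *Igkc* had an unadjusted p under 0.05, both higher in the knockout. The background was 3.67% of 15441 genes tested, 2.09% higher and 1.58% lower. None of the 5 passed an adjusted p of 0.05, as 0.0194% of all genes did. None had groups that did not overlap in CPM, as 2.03% of all genes did (1.11% higher and 0.92% lower). Without *MiR-29ab1*-/- mouse 4 the log2 fold changes of *Igha*, *Igkc* and *Jchain* were 0.98, 0.68 and 0.71 (unadjusted edgeR p of 0.0755, 0.127 and 0.203).

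*Ighm* did not follow *Igha*. It had 111, 112, 101 and 74 reads in WT mice 1 to 4 (6.11, 6.68, 5.605 and 4.12 CPM) and 29, 46, 40 and 195 reads in *MiR-29ab1*-/- mice 1 to 4 (1.96, 2.80, 2.54 and 13.98 CPM). *MiR-29ab1*-/- mice 1 to 3 were all below the lowest WT mouse, and mouse 4 was above the highest. The group means were close, at 5.63 ± 1.10 CPM in WT and 5.32 ± 5.78 CPM in the knockout (SD, n = 4), and the fitted log2 fold change was -0.09 (SE 0.60, edgeR adjusted p = 0.9995). Without *MiR-29ab1*-/- mouse 4 the log2 fold change of *Ighm* was -1.20 (SE 0.26), with an unadjusted edgeR p of 0.000959 and an adjusted p of 0.909.

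*MiR-29ab1*-/- mouse 4 also stood apart in B cell genes. Its 15 B cell markers summed to 75.1 CPM, against 26.5 to 36.1 CPM in the other 7 mice without DSS. Its 7 T cell markers summed to 169 CPM, next to 145 CPM in WT mouse 1 and 32.0 to 83.5 CPM in the other 6. *Cd79a*, a subunit of the B cell receptor, had 70 reads there and 12 to 34 in the others, and *Gp2*, a gene of the M cells over lymphoid follicles, had 17 reads there and 0 or 1 in the others. The mouse second in *Igha*, *MiR-29ab1*-/- mouse 1, had the highest sum of 5 fibroblast markers (30.4 CPM, against 3.81 to 19.9 CPM) and the lowest of 6 colon epithelium markers (1770 CPM, against 2817 to 4932 CPM). The part of these cells in the immunoglobulin values of either mouse was not tested.

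**Figure D2:**
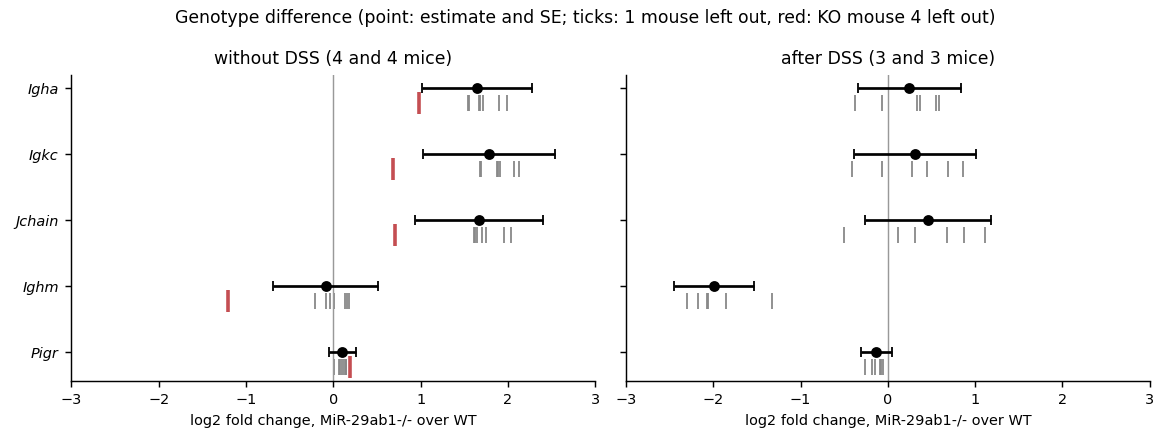
Log2 fold change of the 5 tested genes, *MiR-29ab1*-/- over WT, without DSS (left, 4 and 4 mice) and after DSS (right, 3 and 3 mice), with its SE; ticks show the same value with each mouse left out in turn, red for *MiR-29ab1*-/- mouse 4. Without DSS, leaving out that mouse takes *Ighm* from -0.09 to -1.20 and *Igha* from 1.65 to 0.98; after DSS *Ighm* is at -1.99 and stays at or below -1.33 with any mouse left out.

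After DSS the question was whether the genotypes differed in injured colon. The IgA genes did not separate the genotypes, and *Ighm* did. *Ighm* had 68, 94 and 198 reads in WT mice 1 to 3 (2.85, 3.93 and 9.39 CPM) and 29, 28 and 26 reads in *MiR-29ab1*-/- mice 1 to 3 (1.49, 1.48 and 1.08 CPM). Every *MiR-29ab1*-/- mouse was below every WT mouse. The means were 5.39 ± 3.51 and 1.35 ± 0.235 CPM (SD, n = 3), and the fitted log2 fold change was -1.99 (SE 0.46), with an unadjusted p of 0.00209 and an adjusted p of 0.646 by edgeR's quasi-likelihood test. The exact permutation test gave p = 0.1, the smallest that 3 mice against 3 allow.

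*Igha* had 193, 422 and 459 reads in WT mice (8.08, 17.7 and 21.8 CPM) and 299, 604 and 218 in *MiR-29ab1*-/- mice (15.4, 32.0 and 9.08 CPM), so that the genotypes overlapped. Its log2 fold change was 0.25 (SE 0.59, unadjusted edgeR p of 0.691). *Igkc* had 74, 174 and 263 reads in WT and 148, 319 and 93 in *MiR-29ab1*-/- mice, with a log2 fold change of 0.31 (SE 0.70, unadjusted edgeR p of 0.674). *Jchain* had 35, 59 and 113 against 56, 159 and 36 reads, with a log2 fold change of 0.46 (SE 0.73, unadjusted edgeR p of 0.548). *MiR-29ab1*-/- mouse 2 was the highest of the 6 mice in all 3 genes. It also had the highest sum of 7 myeloid markers, 65.5 CPM, against 12.1 to 26.5 CPM in WT mice and 42.3 and 16.9 CPM in *MiR-29ab1*-/- mice 1 and 3, and the part of these cells was not tested.

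Of the 8 genes, 5 were tested after DSS and *Ighm* alone was called at an unadjusted p under 0.05. The background at that threshold was 7.23% of 14908 genes, 3.25% lower and 3.98% higher in the knockout. *Ighm* was also the only one of the 5 without overlap between the genotypes, beside 11.6% of all genes, 6.28% lower and 5.33% higher. At an adjusted p of 0.05 edgeR called none of the 5, beside 0.0134% of all genes. With DESeq2 the adjusted p of *Ighm* was 0.0122 (log2 fold change -1.99), and with edgeR on all genes without a filter on low counts it was 0.0107. These settings called more genes at an adjusted p of 0.05. DESeq2 called 44 higher and 15 lower of 14908, and edgeR without the filter 32 higher and 14 lower of 27172. WT mouse 3 had the highest *Ighm* and also the highest sum of B cell markers, 34.4 CPM against 13.2 to 18.5 CPM in the other 5 mice. Without it the log2 fold change of *Ighm* was -1.33 (SE 0.34, unadjusted edgeR p of 0.00459).

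The B cell surface genes *Cd79a* and *Ms4a1* overlapped between the genotypes. *Cd79a* had 6, 6 and 38 reads in WT mice and 11, 9 and 6 in *MiR-29ab1*-/- mice after DSS, and *Ms4a1*, which encodes CD20, had 4, 17 and 53 against 5, 8 and 15. WT mouse 3 was the highest in both. Without DSS *Cd79a* had 26, 34, 27 and 26 reads in WT and 30, 30, 12 and 70 in *MiR-29ab1*-/- mice. In reads, which are not scaled to library size, *MiR-29ab1*-/- mice 1 and 2, which were low in *Ighm*, lay within the WT range. Of the 15 B cell markers, 8 were tested without DSS, with 7 log2 fold changes above 0 (median 0.23, against -0.0016 for all genes), and 4 after DSS, with 3 below 0 (median -0.68). *Spib* (11.6 ± 1.72 and 19.1 ± 4.93 CPM in WT and *MiR-29ab1*-/- mice, unadjusted edgeR p of 0.0029) was the only one past an unadjusted p of 0.05, without DSS; its genotypes did not overlap there, as in 1.11% of genes higher in the knockout. It is a transcription factor that some epithelial cells make as well, and it supplied much of the summed level. Without *Spib* the other 14 B cell markers summed to 15.3 to 22.5 CPM in WT mice without DSS, and to 13.3, 14.9, 11.9 and 49.2 CPM in *MiR-29ab1*-/- mice 1 to 4. *MiR-29ab1*-/- mice 1 to 3, low in *Ighm*, were thus below every WT mouse in this sum as well, and mouse 4 was above. After DSS the sum was 4.94, 5.44 and 18.9 CPM in WT mice 1 to 3 and 9.21, 7.53 and 6.20 CPM in *MiR-29ab1*-/- mice 1 to 3, so that WT mice 1 and 2 were below all 3 in the sum and above them in *Ighm*. The part of B cell number in *Ighm* was not tested.

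**Figure D3:**
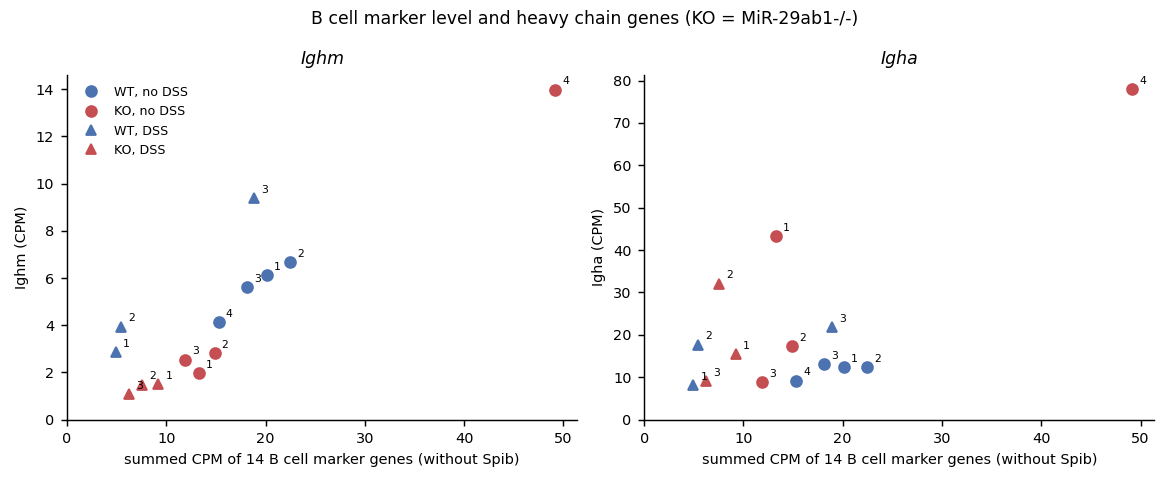
*Ighm* (left) and *Igha* (right) in CPM against the summed CPM of 14 B cell marker genes (*Spib* left out), 1 point per mouse, circles without DSS and triangles after DSS. Without DSS *MiR-29ab1*-/- mice 1 to 3 are below the 4 WT mice on both axes of the left panel (11.9 to 14.9 against 15.3 to 22.5 CPM of B cell markers, 1.96 to 2.80 against 4.12 to 6.68 CPM of *Ighm*), and mouse 4 is far out on both; after DSS they are lower in *Ighm* but within the WT range of B cell markers.

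A share within the heavy chains does not depend on how libraries are scaled. *Ighm* made up 29.6%, 27.1%, 20.7% and 24.4% of the reads on heavy chain constant genes in WT mice 1 to 4 without DSS, and 3.79%, 10.4%, 19.0% and 9.77% in *MiR-29ab1*-/- mice 1 to 4. All 4 *MiR-29ab1*-/- mice, mouse 4 included, were below all WT mice. In mouse 4 this low share went with the highest *Ighm* level of the 8 mice, since its *Igha* and *Ighg* reads were higher still, and in mice 1 and 2 a lower *Ighm* and a higher *Igha* than in any WT mouse both entered the share. The means were 25.5% ± 3.79 and 10.8% ± 6.28 (SD, n = 4), with an exact permutation p of 0.0286, the smallest that 4 against 4 allow, and 0.157 after adjustment over the 11 ratios tested. The gap was narrow at its edge: *MiR-29ab1*-/- mouse 3 had 40 of 210 reads (95% Wilson interval 14.3% to 24.9%), and WT mouse 3 had 101 of 487 (17.4% to 24.6%). These intervals cover counting error only.

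After DSS the *Ighm* share was 24.2%, 17.2% and 24.4% in WT mice and 7.30%, 3.95% and 9.35% in *MiR-29ab1*-/- mice. The genotypes again did not overlap, with means of 21.9% ± 4.11 and 6.87% ± 2.72 (SD, n = 3, exact permutation p = 0.1, the smallest possible, and 0.55 after adjustment). The nearest mice were *MiR-29ab1*-/- mouse 3, with a Wilson interval of 6.46% to 13.4%, and WT mouse 2, with 14.2% to 20.5%.

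**Figure D4:**
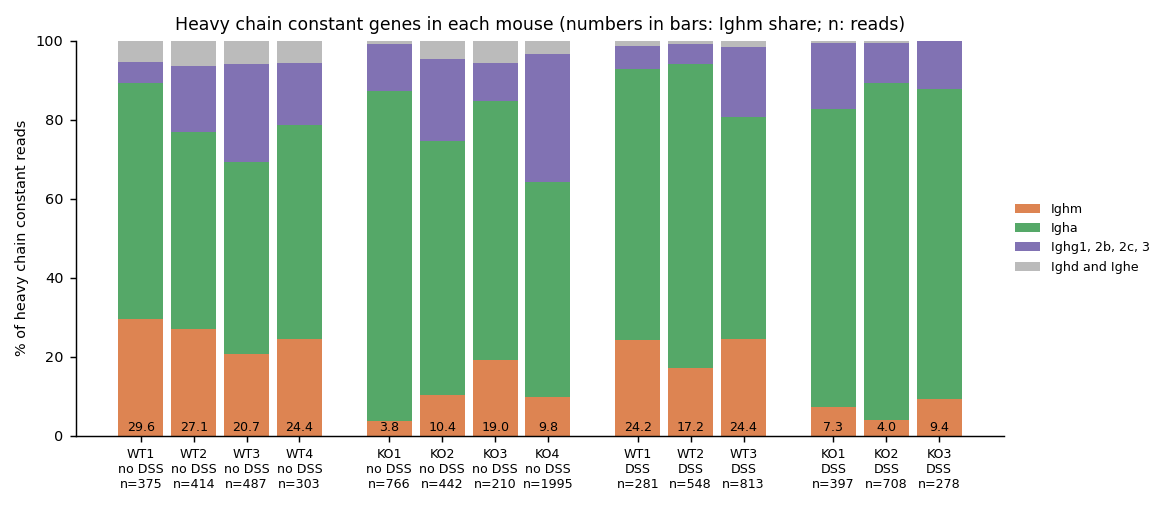
Reads on the heavy chain constant genes of each mouse, as percent of their sum: *Ighm* (number in the bar), *Igha*, the 4 *Ighg* genes, and *Ighd* with *Ighe*; n is the number of reads. The *Ighm* share is 20.7% to 29.6% in WT and 3.79% to 19.0% in *MiR-29ab1*-/- mice without DSS, and 17.2% to 24.4% and 3.95% to 9.35% after DSS.

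Set against *Igha* alone, *Ighm* had 49.6, 54.4, 42.8 and 45.1 reads per 100 *Igha* reads in WT mice 1 to 4 without DSS and 4.54, 16.2, 29.0 and 17.9 in *MiR-29ab1*-/- mice 1 to 4. The means were 48.0 ± 5.11 and 16.9 ± 10.01 (SD, n = 4, exact permutation p = 0.0286, adjusted 0.157), a mean log2 difference of -1.77. After DSS the values were 35.2, 22.3 and 43.1 in WT and 9.70, 4.64 and 11.9 in *MiR-29ab1*-/- mice (n = 3, exact permutation p = 0.1, adjusted 0.55), a mean log2 difference of -1.99. The genotypes did not overlap in either experiment. The share and this ratio rest on the same *Ighm* and *Igha* reads and are not separate evidence.

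The J chain and the kappa chain did not differ detectably between the genotypes in their proportion to *Igha*. *Jchain* had 21.0 ± 5.45 reads per 100 *Igha* reads in WT and 18.0 ± 4.47 in *MiR-29ab1*-/- mice without DSS (SD, n = 4, exact permutation p = 0.429), and 18.9 ± 5.36 and 20.5 ± 5.15 after DSS (n = 3, exact permutation p = 0.7). *Igkc* had 55.5 ± 10.3 and 55.3 ± 14.5 without DSS (exact permutation p = 0.914), and 45.6 ± 10.2 and 48.3 ± 5.18 after DSS (exact permutation p = 0.7). The ranges overlapped for both genes in both experiments, while *Igha* itself ranged from 8.08 to 77.9 CPM. Kappa made up 88.6% ± 1.65 and 88.9% ± 5.94 of the light chain constant reads without DSS, and 92.6% ± 2.00 and 89.3% ± 8.49 after DSS, for WT and *MiR-29ab1*-/- mice.

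**Figure D5:**
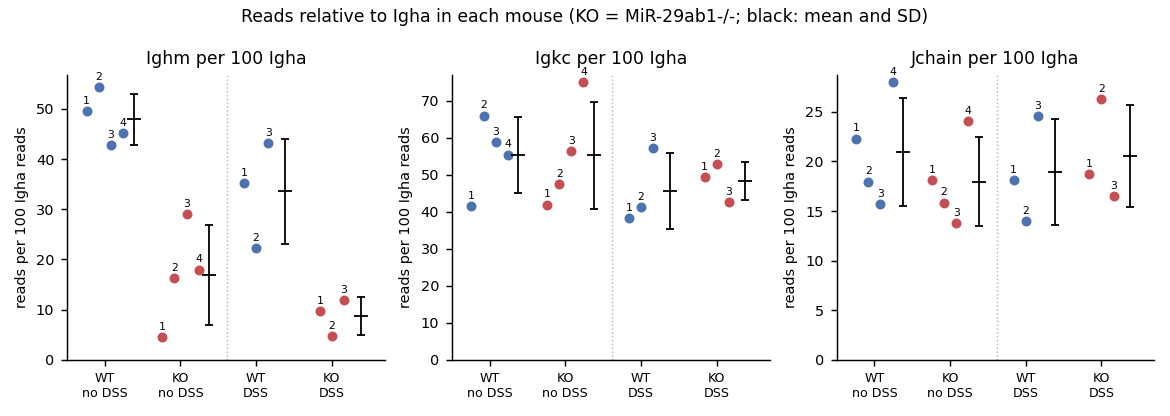
Reads of *Ighm*, *Igkc* and *Jchain* per 100 *Igha* reads in each mouse, on linear axes from 0, with the mean and SD of each group in black. *Ighm* separates the genotypes in both experiments (42.8 to 54.4 against 4.54 to 29.0 without DSS, 22.3 to 43.1 against 4.64 to 11.9 after DSS), and the other 2 genes overlap.

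The pattern over mice was described by the lower of the 2 Pearson correlations of log2 CPM with *Igha*, 1 over the 8 mice without DSS and 1 over the 6 mice after DSS, among 14142 genes tested in both tables that are no immunoglobulin genes. *Jchain* came first (0.97 and 0.96), and *Igkc*, as an immunoglobulin gene set beside that list, was at 0.97 and 0.99. Among the next genes were *Cald1*, *Cxcl16*, *Jdp2*, *Sptb*, *Cep120*, *Klhl6*, *Csf1r* and *Gm10399*, with lower values of 0.81 down to 0.76. *Ighm*, at 0.34 and 0.24, would have stood at place 1487 and *Pigr*, at -0.04 and -0.70, at place 12726. Both genotypes entered each correlation, the depth differed between mice, and no p is given.

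The other heavy chains were counted in few reads. IgG genes took 15.7% ± 8.01 and 18.6% ± 10.3 of heavy chain constant reads in WT and *MiR-29ab1*-/- mice without DSS (SD, n = 4, exact permutation p = 0.714), and 9.40% ± 7.10 and 13.1% ± 3.44 after DSS (n = 3, exact permutation p = 0.4). *MiR-29ab1*-/- mouse 4 without DSS had 221 *Ighg2b*, 219 *Ighg2c*, 174 *Ighg1* and 32 *Ighg3* reads, against 7 to 63, 1 to 22, 1 to 23 and 0 to 26 in the other 7 mice. *Ighd*, the IgD heavy chain of naive B cells, had 17 to 29 reads in WT and 6, 21, 12 and 65 in *MiR-29ab1*-/- mice without DSS, and 0 to 13 in the 6 mice after DSS. *Ighe* and *Iglc4* did not exceed 2 reads in any mouse. *Ighg2b* and *Ighg2c*, and the *Iglc* genes among themselves, are close copies that the counting could have split.

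*Iglc2*, a lambda light chain gene, was below the filter in both experiments. It had 6, 6, 11 and 3 reads in WT and 23, 5, 2 and 22 in *MiR-29ab1*-/- mice without DSS, and 0, 5 and 9 against 1, 2 and 9 after DSS. *MiR-29ab1*-/- mice 1 and 4, the highest in *Igha*, were also the highest here, and the other 2 had no more reads than 3 of the 4 WT mice. The lambda genes *Iglc1* (4 to 8 and 3 to 36 reads without DSS) and *Iglc3* (2 to 3 and 1 to 7) were of the same order.

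*Mzb1* and *Tnfrsf17* were near the limit of detection. *Mzb1* had 2, 0, 0 and 0 reads in WT and 0, 1, 1 and 4 in *MiR-29ab1*-/- mice without DSS, and 1, 3 and 8 against 7, 9 and 0 after DSS. *Tnfrsf17* had at most 2 reads in any mouse. A count of 0 allows up to 3 reads, which is 0.165 to 0.215 CPM without DSS and 0.125 to 0.159 CPM after DSS, so differences between genotypes in these 2 genes were not detectable at this depth.

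The variable genes give a view of how many antibody genes stood behind these reads. *MiR-29ab1*-/- mouse 4 without DSS had 432 reads on 70 *Ighv* genes and 470 on 59 *Igkv* genes, with *Ighv1-26* (32 reads), *Ighv6-3* (23) and *Ighv1-53* (21) leading. *MiR-29ab1*-/- mouse 1 had 131 reads on 37 *Ighv* genes, led by *Ighv7-3* (15), *Ighv4-1* (13) and *Ighv1-9* (11), and 157 reads on 39 *Igkv* genes, of which *Igkv1-110* took 39 and *Igkv1-117* took 32. The most abundant *Ighv* gene took 7.41% to 16.7% of *Ighv* reads without DSS and 7.64% to 20.2% after DSS, with overlapping genotypes in both. *Igkv1-117* was among the 3 leading *Igkv* genes in 10 of 14 mice and *Igkv1-110* in 9. Genes with equal reads were ordered by name, and some of these places rested on 4 or 5 reads. In WT mouse 4 without DSS, for example, *Igkv1-117* and *Igkv10-96* had 4 reads each. The variable genes are near-identical families, and reads may have been split among their members.

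*Pigr* was abundant and passed no test between the genotypes. Without DSS it had 128872, 122502, 108114 and 112913 reads in WT mice 1 to 4 (7096, 7306, 6000 and 6291 CPM) and 125747, 115342, 115019 and 81761 in *MiR-29ab1*-/- mice 1 to 4 (8502, 7024, 7301 and 5862 CPM). The log2 fold change was 0.10 (SE 0.15, unadjusted edgeR p of 0.515). *MiR-29ab1*-/- mouse 4, highest in *Igha*, had the lowest *Pigr* of the 8, and mouse 1, second in *Igha*, had the highest.

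After DSS *Pigr* stood at 6195, 5333 and 5594 CPM in WT mice and at 4632, 4897 and 6058 CPM in *MiR-29ab1*-/- mice. The log2 fold change was -0.14 (SE 0.18, unadjusted edgeR p of 0.466), and *MiR-29ab1*-/- mouse 3 was within the WT range while the other 2 were below it. Relative to 9 epithelial marker genes, *Pigr* was at 51.4% ± 8.14 and 55.8% ± 12.3 of their summed CPM in WT and *MiR-29ab1*-/- mice without DSS (SD, n = 4, exact permutation p = 0.571), and at 27.8% ± 3.33 and 23.7% ± 5.28 after DSS (n = 3, exact permutation p = 0.3). The 2 experiments were counted in separate tables, and levels in one are not compared with levels in the other here.

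Among the genes whose pattern over mice was most like that of *Pigr*, by the same measure, were *Ube2r2*, *Clic6*, *Klhl23*, *Pgrmc2*, *Slc5a8*, *Slc25a39*, *Atg7*, *Foxa2* and *Cttnbp2nl*, with lower correlations of 0.90 down to 0.83. *Slc5a8* encodes a short-chain fatty acid transporter of colon epithelium and *Foxa2* an epithelial transcription factor. *Igha*, *Igkc*, *Jchain* and *Ighm* stood between places 10913 and 12084 of 14141.

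Whether the genotype difference itself differed between the experiments was tested in a model of all 14 mice. *Ighm* had a log2 difference of -1.89 (SE 0.88, unadjusted edgeR p of 0.0514, adjusted p = 0.985) and *Igha* of -1.39 (SE 0.93, unadjusted edgeR p of 0.165). Of the 8 genes, 6 were tested and none was called at an unadjusted p under 0.05, beside 3.96% of 16196 genes, and none at an adjusted p, beside 0% of genes. Without *MiR-29ab1*-/- mouse 4 of the experiment without DSS, the value for *Ighm* was -0.79 (SE 0.52, unadjusted edgeR p of 0.153). It passed an unadjusted p of 0.05 with DESeq2 (-1.90, unadjusted p of 0.0178) and in edgeR when *MiR-29ab1*-/- mouse 1, 2 or 3 without DSS or WT mouse 1 after DSS was left out (-2.17, -2.10, -2.12 and -2.20, unadjusted p of 0.0229, 0.0366, 0.0333 and 0.0318), with no adjusted p under 0.05. At that unadjusted threshold DESeq2 called 288 genes above 0 and 384 below 0, of 16196. Those edgeR fits with a mouse left out called 242 to 324 above 0 and 287 to 434 below 0, of 16073 to 16770 genes. The effects of DSS and of the separate experiment cannot be told apart in the test of this difference.

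The genes around IgA were described from lists. Of 21 plasma cell factors and secretory genes, 20 were tested without DSS, and at an unadjusted p under 0.05 1 was lower in the knockout and none higher (median log2 fold change 0.12, against -0.0016 for all genes), beside 1.58% lower and 2.09% higher among all genes. The lower gene was *Sdc1*, syndecan-1, which plasma cells and epithelium both make, at 214 ± 19.3 and 177 ± 3.23 CPM (SD, n = 4, log2 fold change -0.28, SE 0.09). *Xbp1*, the factor of the secretory programme, was at 301 ± 31.0 and 304 ± 31.6 CPM. *Prdm1*, which encodes Blimp-1, was at 3.43 ± 1.02 and 5.07 ± 1.08 CPM (log2 fold change 0.56, SE 0.26, unadjusted edgeR p of 0.0527).

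After DSS 17 of the 21 were tested, with 2 higher and 2 lower at that threshold, where 3.98% of all genes were higher and 3.25% lower (median 0.10, against -0.0051). *Cd38*, an ectoenzyme of many immune and epithelial cells, was at 270 ± 83.3 and 439 ± 76.4 CPM in WT and *MiR-29ab1*-/- mice (n = 3), and *Slamf7*, a receptor of plasma cells and other lymphocytes, at 1.34 ± 0.501 and 2.84 ± 1.70 CPM. *Txndc5*, a protein disulfide isomerase, was lower, at 351 ± 14.7 and 271 ± 38.4 CPM, as was *Trp53inp1*, at 54.4 ± 8.61 and 41.8 ± 7.92 CPM. None of the list passed an adjusted p of 0.05 in either experiment.

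Of 26 signals for class switching to IgA, for plasma cell survival and for homing, 17 were tested without DSS and 18 after. Without DSS *Tnfsf13*, which encodes the survival factor APRIL, was the 1 gene of the list past an unadjusted p of 0.05 (2.09% of all genes were higher at that threshold) and did not overlap between the genotypes (1.11% of all genes), at 13.2 ± 1.85 CPM in WT and 17.2 ± 1.22 CPM in *MiR-29ab1*-/- mice (SD, n = 4, log2 fold change 0.38, SE 0.13, unadjusted edgeR p of 0.0161, adjusted p = 0.9995). *Tnfsf13b*, which encodes BAFF, was at 6.10 ± 1.58 and 6.06 ± 1.74 CPM. *Ccl28*, the colon chemokine that draws IgA plasma cells, was at 155 ± 17.8 and 173 ± 41.7 CPM. After DSS *Tnfsf13* was at 13.5 ± 1.36 and 14.4 ± 1.80 CPM (n = 3, log2 fold change 0.09, SE 0.15, unadjusted edgeR p of 0.577).

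After DSS 3 genes of this list were higher in the knockout at an unadjusted p under 0.05, where 3.98% of all genes were, and none was lower (median log2 fold change 0.01). They were *Runx3* (2.99 ± 1.54 and 6.08 ± 2.43 CPM), the gut homing receptor *Ccr9* (1.29 ± 0.357 and 2.84 ± 1.60 CPM) and the integrin subunit *Itgb7* (8.46 ± 2.35 and 14.1 ± 5.73 CPM), all of which T cells make as well. The 7 T cell markers had log2 fold changes above 0 after DSS (median 0.59, against -0.0051 for all genes), with summed levels from 37.3 to 71.4 CPM in WT mice and from 52.4 to 124.5 CPM in the knockout. The part of T cells in these 3 genes was not tested.

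For the transport route of the receptor, a share near the background was called. Of 14 genes for the sorting of *Pigr* and for other immunoglobulin receptors, all were tested in both experiments, none was called without DSS (3.67% of all genes; median log2 fold change -0.0018), and after DSS 1 was (7.23% of all genes). *Rab11a*, a GTPase of recycling endosomes, was higher there, at 139 ± 8.99 and 176 ± 34.7 CPM (SD, n = 3, log2 fold change 0.34, SE 0.15, unadjusted edgeR p of 0.0443). *Rab25*, its epithelial relative, was at 181 ± 9.66 and 178 ± 7.98 CPM without DSS and at 227 ± 7.52 and 227 ± 6.35 CPM after DSS. *Myo5b*, the motor of these endosomes, was at 197 ± 19.2 and 201 ± 29.6 CPM without DSS and at 205 ± 13.3 and 224 ± 14.1 CPM after DSS.

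Cytokines that induce *Pigr*, with their receptors and factors, made up a list of 22 genes. Without DSS 16 were tested and 3 were higher in the knockout at an unadjusted p under 0.05, beside 2.09% of all genes, with a median log2 fold change of 0.07. They were the interleukin-4 receptor gene *Il4ra* (38.2 ± 3.49 and 46.4 ± 1.81 CPM, unadjusted edgeR p of 0.0113), *Irf1*, a factor induced by interferon (90.5 ± 4.95 and 108 ± 11.8 CPM, unadjusted edgeR p of 0.0211), and *Usf1*, a factor that binds E-boxes (39.8 ± 2.58 and 45.8 ± 2.82 CPM, unadjusted edgeR p of 0.0406; SD, n = 4 for each). After DSS 18 were tested and none was called, with a median of 0.09. *Ifng* (0.509 ± 0.0845 and 0.941 ± 0.379 CPM) and *Tnf* (3.25 ± 1.617 and 7.47 ± 3.84 CPM) had unadjusted edgeR p-values of 0.0825 and 0.0607 there. *Pigr* itself, as given above, did not pass the test in either experiment.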

How the data were processed

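RNA of 14 mice was compared by genotype within each experiment. Per gene, the authors deposited whole read counts without normalization, in 1 table per experiment; per the labels, libraries were made with a directional kit and HISAT2 and DESeq2 were used, with versions, counting tool and genome build not given in the sources used here. All 8 genes without DSS and 7 of 8 after DSS have the start and end of GENCODE vM21 on GRCm38. The 14 FPKM columns and the columns of the authors' own fold changes and p-values were not used. The test was that of edgeR 4.0.16 under R 4.3.3 (filterByExpr with minimum count 10 and minimum total 15, TMM, robust glmQLFit and glmQLFTest, Benjamini-Hochberg over all genes); SE is the log2 fold change over the root of F. The script was tested on simulated data. Single values and ratios were compared by two-sided exact permutation tests (SciPy 1.17.1), whose smallest p is 0.0286 for 4 against 4 mice and 0.1 for 3 against 3. Numbered identifiers of unannotated loci name different loci in the 2 tables and were not joined. Alternatives were DESeq2 1.42.0, RLE size factors, scaling without immunoglobulin reads, no filter, at least 10 counts in every mouse, all 14 mice in 1 model, the replicate number as a block and each mouse left out. Same-numbered mice without DSS did not deviate together (correlations -0.03, 0.15, -0.19 and -0.13), and the numbers were not taken as pairs. The columns after DSS are numbered otherwise than the labels and were assigned to groups only. Genes named beyond the 8 were all other immunoglobulin constant genes, list genes at an unadjusted p under 0.05 with at most 4 further by level, and the 10 genes most alike in pattern, of which some are not reported here; *Cd79a*, *Ms4a1*, *Gp2*, *Prdm1*, *Tnfsf13b*, *Ifng* and *Tnf* were chosen after their values were seen, as was the sum of B cell markers without *Spib*. The members and lists were chosen with earlier results of these data known. Counting limits low genes: 3 reads are 0.125 to 0.215 CPM. Labels do not say more of the mice than that they are separate samples.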

Additional observations from a re-analysis of the deposited data

Results flagged for a closer look

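In groups of 4 mice, the highest or lowest value was compared with its neighbours by Dixon's test, which chance passes in about 1 of 20 groups, and 4 of 38 groups passed it. *Ighm* in *MiR-29ab1*-/- mouse 4 without DSS (13.98 CPM) lay far above the other 3 mice of its group. In 2 cases the mouse that stood apart had 2 reads: *Mzb1* in WT mouse 1 (0.110 CPM, with 0 reads in the other 3) and *Tnfrsf17* in *MiR-29ab1*-/- mouse 4 (0.143 CPM, with 0 in the other 3). The most abundant *Ighv* gene took 16.7% of *Ighv* reads in WT mouse 4, which is 7 of 42 reads.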

How the results depend on the processing

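Counts of genes at an adjusted p of 0.05 depended on the test. Without DSS edgeR called 3 genes, DESeq2 12 higher and 11 lower, edgeR without a filter 7 and 4, edgeR with at least 10 counts in every mouse 0 higher, and all 14 mice in 1 model 1 lower; with a mouse left out 0 to 1 were lower. After DSS edgeR called 2, DESeq2 44 higher and 15 lower, no filter 32 and 14, at least 10 counts 0 higher, and with a mouse left out 0 to 54 were higher and 0 to 39 lower. Without *MiR-29ab1*-/- mouse 3 the numbers were 54 and 39. Of the 8 genes, 1 (*Ighm*) passed an adjusted p after DSS by DESeq2 and without the filter. In the experiment without DSS, DESeq2 gave *Ighm* a log2 fold change of -0.079 and no p. The 2 at an unadjusted p under 0.05 without DSS were 0 without the filter, 1 with at least 10 counts in every mouse, and 0 to 4 with a mouse left out (4 without *MiR-29ab1*-/- mouse 3, 0 without any 1 WT mouse).

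With the replicate number as a block, 0 of the 8 genes passed an unadjusted p of 0.05 without DSS, and the log2 fold changes were 1.22 for *Igha*, 1.18 for *Igkc*, 1.06 for *Jchain*, -0.60 for *Ighm* and 0.10 for *Pigr*. Same-numbered mice shared only a number. No paired analysis was possible after DSS because the columns carry other numbers than the labels.

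Several values near 0 turned with 1 mouse left out. Without DSS *Ighm* ranged from -1.20 to 0.18. After DSS *Igha* ranged from -0.37 to 0.58, *Igkc* from -0.41 to 0.86 and *Jchain* from -0.50 to 1.11, each lowest without *MiR-29ab1*-/- mouse 2. As log2 differences of means over mice, *MiR-29ab1*-/- minus WT, the IgG share without DSS ranged from -0.18 to 0.56, the kappa share from -0.024 to 0.047, the leading *Ighv* share from -0.13 to 0.26 (-0.0086 from the mean of the shares), the leading *Igkv* share from -0.16 to 0.27, *Igkc* per *Igha* from -0.18 to 0.10 and *Pigr* against epithelial genes from -0.031 to 0.20. After DSS the immunoglobulin share ranged from -0.56 to 0.37, the kappa share from -0.12 to 0.019, *Jchain* per *Igha* from -0.071 to 0.34 and *Igkc* per *Igha* from -0.014 to 0.28. The cause was not tested for any of these. The lower *Ighm* share and *Ighm* to *Igha* ratio kept their sign with every mouse left out. Without DSS their exact permutation p was 0.0571 without any 1 WT mouse and 0.0286 without any 1 *MiR-29ab1*-/- mouse.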
